A study of Bos taurus with 90 samples.

Results

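Liver RNA of Charolais (CH), a beef breed, and Holstein-Friesian (HF), a dairy breed, was sequenced in steers that differed in residual feed intake (RFI), which is low in feed-efficient animals, and the 100 genes with the most persistent difference in level between the breeds are described here. They were selected on the measured breed difference itself. For each library the level of a gene was taken as log2(CPM + 0.5), where CPM is the reads of that gene per 1e+06 reads counted on genes, and the HF mean was subtracted from the CH mean in each of 3 diets. Of 24616 genes, 11955 had a mean of at least 1 CPM over the 90 libraries, and 2362 of these differed in the same direction under every diet. The 100 genes whose smallest absolute difference over the 3 diets was largest were kept, 54 with higher and 46 with lower levels in CH. The breed difference of these genes is therefore a description and was not tested.

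The steers were fed a high-concentrate barley diet while growing (H1), then freshly cut grass fed indoors (ZG), and finally the high-concentrate diet again during finishing (H2), and a liver biopsy was taken at the end of each phase. Within each breed and phase the steers most divergent in RFI were sequenced, so that a steer can be low RFI in one phase and high RFI in another. Low and high RFI were represented in CH by 9 and 11 libraries under H1, 3 and 3 under ZG, and 9 and 8 under H2, and in HF by 7 and 9, 10 and 8, and 5 and 8. Every steer went through the diets in this order, so diet cannot be told apart from age and season, and the HF steers were on average older than the CH steers at the start of the first phase, so breed and age are not fully separate. The reads counted on genes ran from 9097695 to 63621304 in a library, and the 100 genes together held between 0.131% and 0.441% of them, with a median of 0.211%.

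Names were paired with identifiers for just 8 of the 100 genes. These were SERPINI2, GSTA4, GIMAP8, LOC768255, CCL14, GIMAP4, GUCY2D and RTKN. The names come from the supplementary list of RFI genes that the study chose on these libraries, so the named genes are not independent evidence of an RFI effect. The other 92 genes are known here by an Ensembl identifier alone, and only the 3 that rank first in each direction, and 1 picked after its values were seen, are named in that way. Lists of liver, immune and other marker genes could be matched for at most 28.6% of their symbols, so the makeup of the biopsies was not measured. In whole tissue, fewer cells of a type and less RNA per cell cannot be told apart.

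The GTPases of the immunity-associated protein family (GIMAP) lie side by side in one cluster of the genome and are expressed mainly in lymphocytes and other blood cells, where they act in cell survival and development. GSTA4 is a glutathione transferase that conjugates the reactive aldehydes left by lipid peroxidation, a task for which liver is well equipped. CCL14 is a chemokine that attracts monocytes, SERPINI2 a serine protease inhibitor known from the pancreas, and GUCY2D a membrane guanylate cyclase studied in the retina.

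Before the levels are given, the libraries themselves were set against the breeds. For each library the genes were chosen again without it, and the genes in which it lay nearer the mean of the other breed were counted. Of the 90 libraries, 86 lay nearer the other breed in 15 to 51 genes of 100, with a median of 32. The remaining 4 did so in 65 to 70 genes. They were the HF libraries of steer 5624 under H1, with 69 genes, and of steers 2094 and 5612 under ZG, with 65 genes each, and the CH library of steer 437 under ZG, with 70 genes. The latter is 1 of only 6 CH libraries under ZG. The break was less clear on a scale from 0 at the mean of the own breed to 1 at that of the other. On it the 4 libraries were at 0.69 to 1.03. CH steer 788 under ZG was at 0.65, CH steer 1100 under H1 at 0.62 and HF steer 2266 under H1 at 0.57. The latter libraries were not set apart. Values without the 4 libraries of 65 to 70 genes are given below beside results that they moved. The 4 were picked for running against the breed difference, so leaving them out tends to widen it by construction. Such values show how far a result depended on few libraries and are not evidence of a breed difference.

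**Figure D1:**
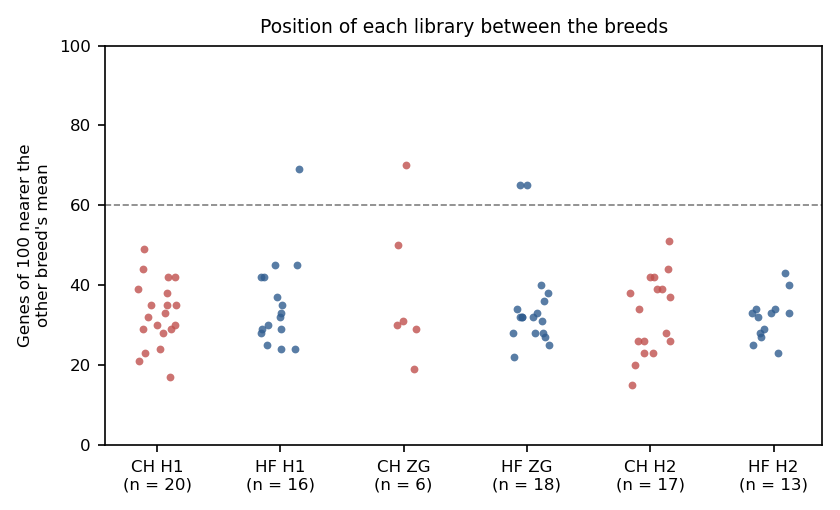
Number of the 100 genes, chosen without the library in question, in which each library lay nearer the mean of the other breed than that of its own, by breed and diet (1 point per library). The dashed line at 60 separates 4 libraries, at 65 to 70 genes, from the other 86, at 15 to 51.

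Some libraries of different steers were also closely alike. Across the 100 genes the levels of the HF library of steer 5624 under H1, taken as deviations from the mean of all libraries, correlated with those of the CH library of steer 1100 under H1 with r = 0.925, while the median over 3986 pairs of different steer numbers was -0.023. The HF libraries of steers 5609 and 5612 under H2 gave r = 0.862 and the CH libraries of steers 1078 and 447 under H1 gave r = 0.849, and no other pair of different steers exceeded 0.8. The median chi-square per gene between the reads of these pairs was 1.42 to 2.19, above counting noise but under the median of 4.49 for different steers of one diet, and 1.42, for steers 5624 and 1100, was the lowest of all pairs of libraries. Each library was kept as the separate sample that its label gives, and whether a pair came from one animal was not tested. Steer number 1797 was labelled CH under H1 and HF under H2, and each of these libraries lay with the breed of its own label.

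The smallest absolute difference ranged from 0.353 to 1.72 on the log2 scale over the 100 genes, with a median of 0.497. At the limit of the selection, the last genes kept had 0.361 and 0.353, and the first left out 0.351 and 0.341. The median absolute difference was 0.637 under H1, 0.670 under ZG and 0.658 under H2, against 0.0785, 0.190 and 0.129 over all 11955 genes. A difference over 1, that is over 2-fold, was present in 22 genes under H1, in 20 under ZG and in 31 under H2, out of 29, 38 and 50 such genes among all 11955. The count under ZG depended on few libraries, with 37 genes without the 4 libraries nearer the other breed and 31 without CH steer 437 alone, so that the order of the diets was not stable. With a pseudocount of 2 the counts were 14, 11 and 21. Among the genes with higher levels in CH, 32 of 54 had their largest difference under ZG, and among those with higher levels in HF only 2 of 46 did. This split was lost with another scaling. Relative to the reads counted, the median difference of all genes was -0.04 for H1, 0.18 for ZG and -0.12 for H2. With TMM scaling it was 0.012, 0.021 and 0.0024. With TMM scaling the largest difference was under ZG in 11 of 54 and 16 of 46 genes. All 100 genes kept their direction in each diet with TMM scaling, where the median absolute differences were 0.641, 0.652 and 0.732.

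**Figure D2:**
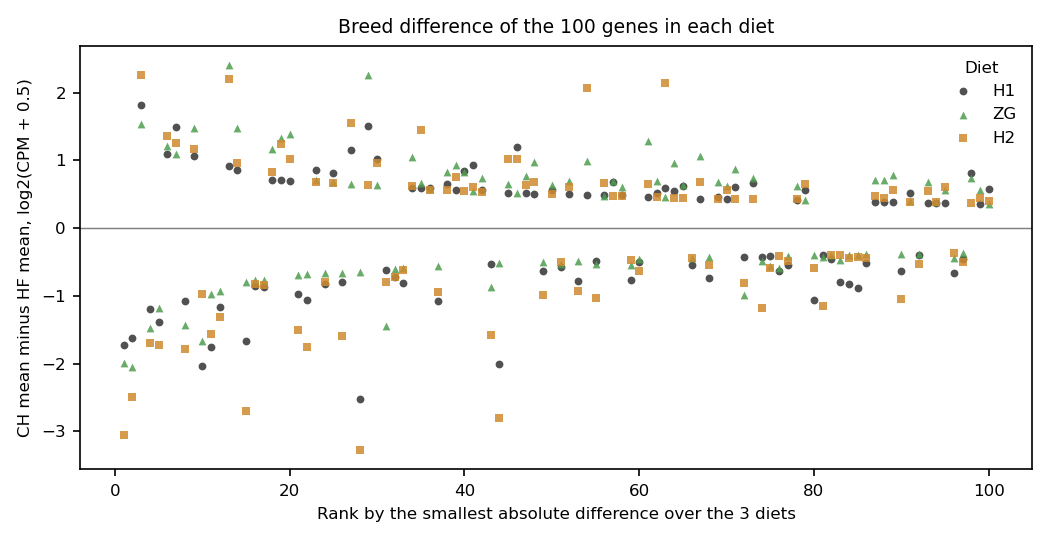
Mean of the CH libraries minus mean of the HF libraries, as log2(CPM + 0.5), for each of the 100 genes under H1 (circles), ZG (triangles) and H2 (squares), ordered by the rule that chose them. All 3 symbols of a gene lie on one side of 0 by construction, 54 genes above and 46 below.

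No gene separated the breeds completely. In 0 of the 100 genes, and in 0 of 11955 (0.0%), did all CH libraries lie on one side of all HF libraries under H1, and the same held under ZG (0.0%) and under H2 (0.0%). Without the 4 libraries nearer the other breed, 2 of the 100 genes separated the breeds under ZG, against 13 of all genes (0.109%). None did under H1 or H2. Such a gain is favoured by how the 4 libraries were picked. In 67 of the 100 genes the libraries of the lower breed reached above the median of the higher breed in every diet.

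ENSBTAG00000047547 ranked first, with a CH minus HF difference of -1.72 under H1, -1.996 under ZG and -3.06 under H2. The 20 CH libraries of H1 ran from 0 to 9.51 CPM with a median of 0.151, and the 16 HF libraries from 0 to 10.4 CPM with a median of 7.36. Both breeds thus held steers at nearly no reads and steers near the highest level, in different proportions. The levels left a gap between 0.86 and 3.44 CPM, and above it were 7 of 20 CH and 13 of 16 HF libraries under H1, 1 of 6 and 12 of 18 under ZG, and 4 of 17 and 12 of 13 under H2. Because the mean falls between such levels, the difference of group medians was -3.59 under H1 and -3.94 under ZG.

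ENSBTAG00000006383 and ENSBTAG00000047008 ranked next among the genes with higher levels in HF, and they were distributed in the same way. ENSBTAG00000006383 had a median of 0.211 CPM in the 6 CH libraries of ZG, which ran from 0.108 to 0.314, and a median of 3.18 CPM in the 18 HF libraries, which ran from 0 to 17.9. Over all diets 3 of 43 CH and 25 of 47 HF libraries lay above a gap between 0.49 and 1.71 CPM. ENSBTAG00000047008 ran from 0 to 12.6 CPM in CH under H2, with a median of 0.151, and from 0.117 to 9.05 CPM in HF, with a median of 5.87. Here 7 of 17 CH and 12 of 13 HF libraries lay above a gap between 0.30 and 2.23 CPM. At these low levels the size of the difference depended on the pseudocount. With 2 in place of 0.5, the differences were -1.03, -1.15 and -1.89 for ENSBTAG00000047547. For ENSBTAG00000006383 they went from -1.62, -2.05 and -2.50 to -0.98, -1.32 and -1.65. For ENSBTAG00000047008 under H2 the difference went from -1.70 to -0.92.

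Among the genes with higher levels in CH, ENSBTAG00000004459 ranked first, with differences of 1.81 under H1, 1.54 under ZG and 2.26 under H2. Under H2 the 17 CH libraries ran from 0.878 to 39.3 CPM with a median of 21.6, and the 13 HF libraries from 0.690 to 1.89 CPM with a median of 1.32. Thus 11 of the 17 CH libraries lay above every HF library while the others lay within their range. Under H1 and ZG a few HF libraries were as high as CH ones. They reached 20.4 CPM in steer 5624 and 26.2 CPM in steer 5612, which are 2 of the 4 libraries nearer the other breed. HF steer 2266 under H1, which is not among the 4, was at 20.1 CPM. ENSBTAG00000031772 differed by 1.10, 1.21 and 1.36, with 22.1 to 57.4 CPM in CH and 5.21 to 33.3 CPM in HF under H1, where 11 of 20 CH libraries were above all HF libraries. ENSBTAG00000006343 differed by 1.49, 1.09 and 1.25, with medians of 13.6 CPM in CH and 3.82 CPM in HF under H1. In both genes the libraries of the breeds overlapped in every diet.

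LOC768255, GIMAP4 and GIMAP8, the named genes of the GIMAP cluster, all had lower levels in CH. In the RefSeq annotation of the ARS-UCD2.0 assembly, which is not the build used for counting, these 3 genes lie on chromosome 4 with 3 protein-coding genes between GIMAP8 and GIMAP4 and 2 between GIMAP4 and LOC768255, most of them further members of the family. For LOC768255 the 20 CH libraries of H1 ran from 1.80 to 199 CPM with a median of 24.9, and the 16 HF libraries from 5.36 to 498 CPM with a median of 94.0. Under ZG the 6 CH libraries had 2.05 to 183 CPM with a median of 73.6, and the 18 HF libraries 3.08 to 653 CPM with a median of 181. Under H2 the 17 CH libraries had 2.39 to 117 CPM with a median of 4.21, and the 13 HF libraries 4.12 to 465 CPM with a median of 93.5. The differences in mean were -2.53, -0.64 and -3.27, so the breeds were closest under ZG.

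GIMAP4 followed the same course, with medians of 32.6 CPM in CH and 124 CPM in HF under H1, 96.4 and 182 CPM under ZG, and 8.97 and 154 CPM under H2. The differences in mean were -2.002, -0.52 and -2.80. Under ZG the direction of both genes rested on 1 CH steer. Without steer 307, at 9.04 CPM of GIMAP4 and 2.05 CPM of LOC768255, the difference was 0.07 for GIMAP4 and 0.20 for LOC768255. Without steer 437 it was -0.79 and -1.03. Without all 4 libraries nearer the other breed it was -0.97 for LOC768255.

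GIMAP8 varied less. Its CH libraries ran from 10.1 to 41.0 CPM under H1 and from 7.29 to 25.0 CPM under H2, with medians of 17.8 and 15.3, while the HF libraries ran from 13.7 to 140 CPM and from 17.2 to 179 CPM, with medians of 28.5 and 34.2. Under H2, 8 of 13 HF libraries were above every CH library. Under ZG the CH range of 13.2 to 174 CPM owed its upper end to steer 437, and the difference of -0.66 became -1.35 without the 4 libraries nearer the other breed, -1.17 without steer 437 alone and -0.44 without steer 357.

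**Figure D3:**
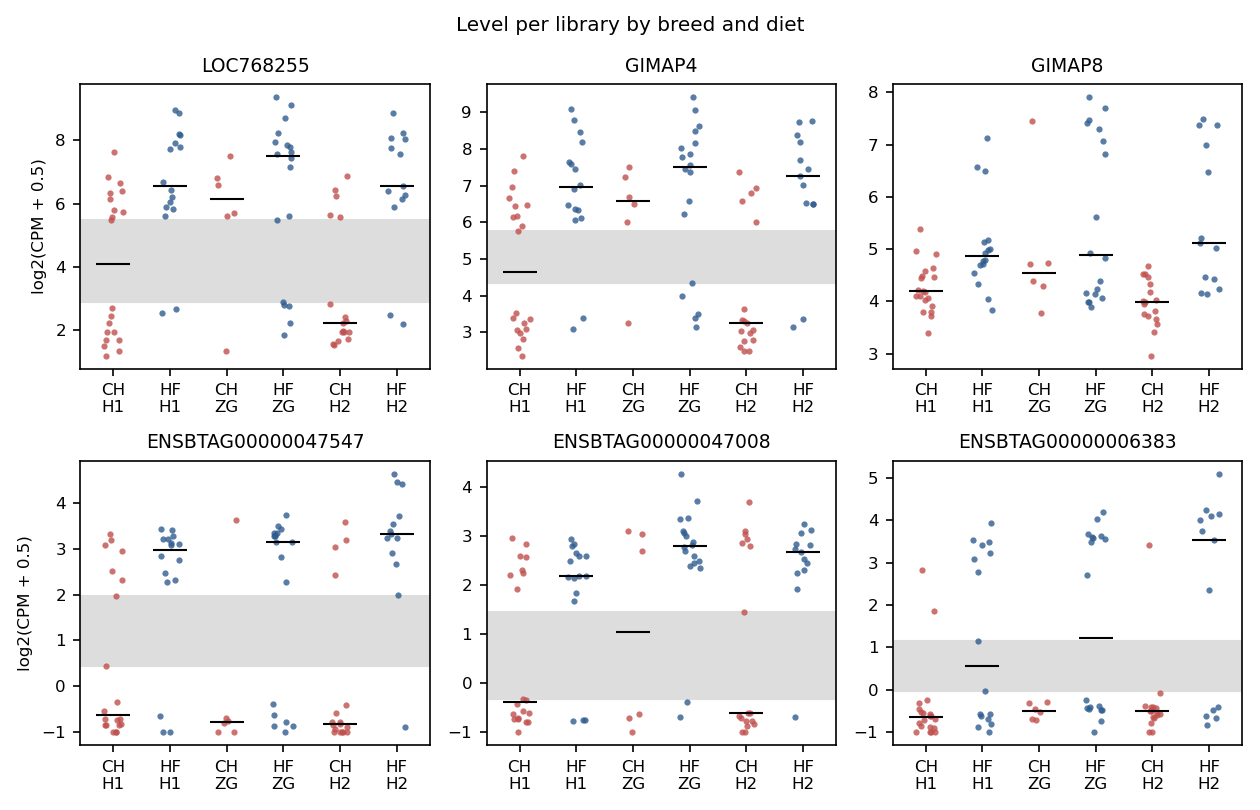
Level of 6 genes with lower levels in CH as log2(CPM + 0.5), 1 point per library (CH red, HF blue), by breed and diet, with black lines at the group medians and grey bands over spans that hold no library and are wider than 1. LOC768255, GIMAP4 and the 3 genes below split into a low and a high set of libraries within both breeds, whereas GIMAP8 has no such band.

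The levels of LOC768255 and GIMAP4 rose and fell together from library to library. After subtraction of the means of the 12 groups of breed, diet and RFI, their deviations over the 90 libraries correlated with r = 0.988, the highest among the 4950 pairs of the 100 genes, and with the same r = 0.988 without the 4 libraries nearer the other breed. GIMAP8 correlated less closely, with r = 0.624 with LOC768255 and r = 0.601 with GIMAP4. Related genes of a family may share reads, and whether reads of one of these genes were counted on another was not tested. Of all pairs, 91.4% lay between -0.3 and 0.3 with a median absolute r of 0.112, so the 100 genes did not vary as one group. Just 7 pairs exceeded 0.7, none lay under -0.7, and the 6 pairs other than LOC768255 and GIMAP4 were between genes without a name, with r from 0.709 to 0.937.

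**Figure D4:**
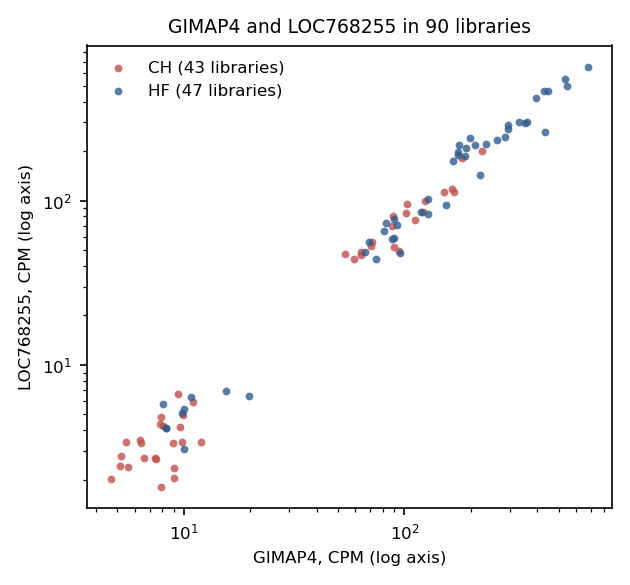
CPM of LOC768255 against CPM of GIMAP4 in the 43 CH and 47 HF libraries, both on log axes, 1 point per library. The points form a low and a high set, and 20 CH and 38 HF libraries are in the high one for both genes.

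GSTA4 had the highest mean level of the 100 genes, 247 CPM, and was higher in CH. Under H1 the CH libraries ran from 99.2 to 525 CPM with a median of 280, and the HF libraries from 80.2 to 374 CPM with a median of 147. The medians were 308 and 176 CPM under ZG and 326 and 227 CPM under H2. The differences in mean were 0.85, 0.70 and 0.68, and with TMM scaling 0.91, 0.53 and 0.81, while the libraries of the breeds overlapped in each diet.

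CCL14 was higher in CH by 0.66, 0.83 and 0.56. Its medians under H1 were nearly equal, at 10.0 CPM in CH and 9.75 CPM in HF, and the difference of medians was 0.04. Under 2 CPM, a limit chosen after the values were seen, were 2 of 20 CH and 6 of 16 HF libraries under H1, 0 of 6 and 5 of 18 under ZG, and 3 of 17 and 3 of 13 under H2. Under ZG the difference was 1.40 without the 4 libraries nearer the other breed.

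GUCY2D was higher in CH by 0.61, 0.87 and 0.43, with medians of 2.45 CPM in CH and 1.55 CPM in HF under H1. RTKN was higher in CH by 0.38, 0.78 and 0.57, with medians of 3.71 and 2.95 CPM under H1. At such levels a pseudocount of 2 in place of 0.5 lowered the differences, to 0.39, 0.54 and 0.24 for GUCY2D and to 0.25, 0.45 and 0.32 for RTKN. SERPINI2 was lower in CH, with differences of -1.66, -0.79 and -2.70. With a pseudocount of 2 they were -1.01, -0.40 and -1.72. All 6 CH libraries of ZG held 0 reads of it, while the 18 HF libraries of ZG ran from 0 to 32.5 CPM with a median of 0.144. Under H2 the HF libraries ran from 0.0585 to 259 CPM with a median of 8.20 and the CH libraries from 0 to 59.6 CPM with a median of 0.0506. A few libraries thus carried most of its reads in either breed.

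The split into low and high libraries was then searched for in all genes. A gap was defined, after the values had been seen, as an interval of the log2 scale wider than 1 that held no library and had at least 9 libraries on each side. Such a gap was found in 9 of the 100 genes and in 19 of 11955 (0.159%), so that 9 of the 19 such genes were among the 100. A wide gap favours a large difference in mean and is hence not separate from the selection. The median of the widest gap was 0.190 over the 100 genes and 0.0715 over all genes. The widest was that of LOC768255, between 6.96 and 43.9 CPM. That of GIMAP4 lay between 19.9 and 54.1 CPM, and the 20 of 43 CH and 38 of 47 HF libraries above it were all above that of LOC768255 too, with no others. ENSBTAG00000039555, which is named because its gap was the second widest, had no library between 1.15 and 7.00 CPM, with 26 of 43 CH and 39 of 47 HF libraries above. Over the 9 genes the share of libraries above the gap ranged from 2.33% to 60.5% in CH and from 8.51% to 87.2% in HF. In every one of them both breeds had libraries on both sides. Without the 4 libraries nearer the other breed the number of genes with such a gap was again 9, out of 20.

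Steers with sequenced libraries in more than 1 phase, that is, chosen for divergent RFI more than once, were compared across diets. The selection did not use steer numbers, but it required a difference in the same direction under every diet. Because these steers supply libraries to more than 1 diet, the rule favours genes whose levels stay alike within a steer. Comparisons of the 100 genes with all genes, here and by gene below, are therefore not fully separate from the selection. The 90 libraries carried 73 steer numbers, and 14 of them had libraries in more than 1 phase under the same breed label, which made 18 pairs of libraries. Deviations from the mean of the breed and diet were correlated across genes within each pair, and genes are not independent replicates. Over the 100 genes r had a median of 0.696 and ranged from 0.126 to 0.823, against a median of 0.298 over all 11955 genes and of -0.009 over the 100 genes between different steers of one breed. The steer with the lowest value was HF steer 5612, whose library under ZG is among the 4 nearer the other breed and whose library under H2 was the one closely alike to that of steer 5609. Without that pair the median was 0.702. Deviations were also taken from the mean of all 90 libraries, which leaves differences between breeds and diets in. With these, 24 of the 30 libraries from steers with several libraries were most alike to another library of the same steer.

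**Figure D5:**
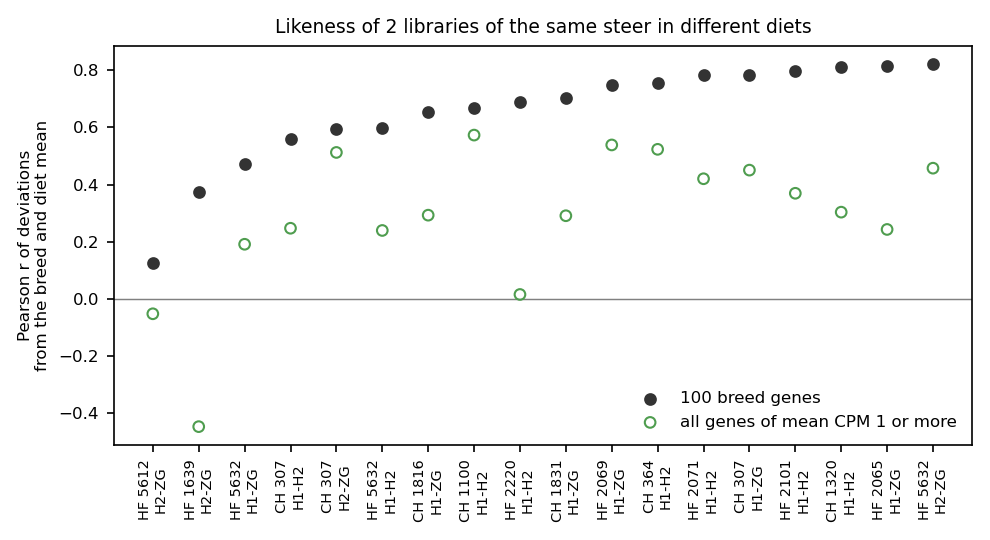
Pearson r, across genes, of the deviations from the breed and diet mean between 2 libraries of the same steer in different diets, for the 100 genes (filled) and for all 11955 genes (open), with the 18 pairs ordered by the former. The filled points have a median of 0.696 and lie above the open points in each pair.

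By gene, the libraries of one steer lay closer together than the median pair of different steers of the breed and diets in at least 75% of the 18 pairs for 40 of the 100 genes, against 1042 of 11955 genes (8.72%). The same held for the genes with a gap. Of 162 combinations of a pair and one of these 9 genes, 155 (95.7%) had both libraries on the same side of the gap, whereas 66.4% of pairs of different steers of one breed under different diets did. For ENSBTAG00000039555 and one other gene, all 18 pairs were on the same side. LOC768255, GIMAP4 and ENSBTAG00000047547 each had 17 of 18, the exception being steer 5612, with 244 CPM of LOC768255 under ZG and 5.11 CPM under H2. For ENSBTAG00000006383 and ENSBTAG00000047008 the exception was steer 1100, whose CH library under H1 was the one alike to the HF library of steer 5624. Steer 1100 was also the exception for one unnamed gene. For SERPINI2 it was HF steer 2101, whose libraries were neither among the 4 nor in an alike pair.

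The effect of diet on these genes was tested with edgeR's quasi-likelihood test over all 90 libraries. It was taken as the mean over breed and RFI of one diet minus another, with the breeds weighed equally. With 6 CH and 18 HF libraries under ZG, chance variation of the CH mean enters both this contrast and the breed difference. Comparisons with ZG are therefore not fully separate from the selection. All 100 genes passed the filter on low counts. A gene was called changed below 0.1, the threshold of the study, after Benjamini-Hochberg adjustment. Between H1 and ZG, 10 of the 100 genes were higher under ZG (30.7% of 13945 genes) and 14 lower (29.7%). Between H1 and H2, 21 were higher under H2 (38.8% of genes) and 25 lower (36.7%). Between ZG and H2, 7 were higher under H2 (9.24% of genes) and 10 lower (8.26%). In both directions together, 24, 46 and 17 of the 100 genes changed, against 60.5%, 75.4% and 17.5% of all genes, so the share was lower than that of all genes in both comparisons with H1. The median absolute log2 fold change was 0.295 for the 100 genes and 0.272 for all genes from H1 to ZG, and 0.425 and 0.342 from H1 to H2, so the fold changes themselves were not smaller. Without the 4 libraries nearer the other breed, 29, 47 and 14 of the 100 genes changed in the 3 comparisons, against 61%, 75.3% and 9.49% of all genes.

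From H1 to H2 the counts by direction differed between genes higher in CH and genes higher in HF. Of the 54 genes with higher levels in CH, 20 fell and 6 rose, and of the 46 with higher levels in HF, 5 fell and 15 rose. Over all genes 36.7% fell and 38.8% rose, close to 20 of 54 and not far above 15 of 46, while 6 of 54 and 5 of 46 were lower than these shares. Without the 4 libraries nearer the other breed these counts were 20 and 7, and 5 and 15. From H1 to ZG the split was 10 fallen and 5 risen among the former and 4 and 5 among the latter. These comparisons share the H1 libraries. Neither split was tested.

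RTKN fell over the diets. Its median over both breeds was 3.49 CPM in the 36 libraries of H1, which ran from 0.423 to 6.96, 2.02 CPM in the 24 of ZG and 1.44 CPM in the 30 of H2, which ran from 0.371 to 3.09. From H1 to H2 its log2 fold change was -1.02 (SE 0.16, edgeR adjusted p = 9.66e-08), that from ZG to H2 -0.62 (SE 0.19, adjusted p = 0.0235), and that from H1 to ZG -0.40 (SE 0.18, adjusted p = 0.0528). The last was no longer called without CH steer 437 or without CH steer 788, with -0.35 and -0.34. GUCY2D fell from a median of 1.96 CPM under H1 and 1.62 CPM under ZG to 1.13 CPM under H2, with log2 fold changes of -0.55 (SE 0.16, edgeR adjusted p = 0.00143) and -0.74 (SE 0.18, adjusted p = 0.00385). The diets differ in their share of CH libraries, 20 of 36, 6 of 24 and 17 of 30, which enters medians over both breeds. ENSBTAG00000031772 fell within each breed, from a median of 33.8 CPM under H1 to 23.3 CPM under ZG and 16.0 CPM under H2 in CH, and from 14.7 to 7.73 and 5.19 CPM in HF, with log2 fold changes from H1 of -0.80 (SE 0.25, edgeR adjusted p = 0.00518) and -1.10 (SE 0.21, adjusted p = 4.89e-06). All 3 of these genes had higher levels in CH, and the libraries of the diets overlapped for each.

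GSTA4, also higher in CH, rose from H1 to H2, from a median of 230 to 286 CPM, a difference of 0.59 on the log2 scale (SE 0.13, edgeR adjusted p = 6.2e-05). ENSBTAG00000006343 rose from H1 to H2 by 0.49 on the log2 scale (SE 0.25, adjusted p = 0.0765), a call that was lost without the libraries of steer 1797 and without HF steer 2071. GIMAP8 was higher under ZG than under H1 by 1.13 (SE 0.28, edgeR adjusted p = 0.000711), but by 0.69 without CH steer 437, by 0.74 without the 4 libraries nearer the other breed and by 0.73 with the steer as a block. LOC768255 was lower under H2 than under ZG, at -1.41 on the log2 scale (SE 0.53, adjusted p = 0.0683), which was not called without CH steer 357 (-1.32), without CH steer 437 (-1.19), without the 4 libraries nearer the other breed (-1.22) or with the steer as a block (-1.06). GIMAP4 differed by -1.08 in the same comparison (SE 0.45, edgeR adjusted p = 0.105), short of the threshold. ENSBTAG00000047008 was higher than under H1 both under ZG, by 1.11 (SE 0.50, edgeR adjusted p = 0.0535), and under H2, by 0.92 (SE 0.45, adjusted p = 0.0604). The former rested on CH steer 788, at 7.81 CPM the only high library of the 3 low RFI CH steers, without which it was -0.21. Neither difference was called by DESeq2, with adjusted p of 0.106 and 0.118, or with the steer as a block, where they were 0.97 and 0.76. SERPINI2 was called in all 3 comparisons, lower under ZG than under H1 and H2 and higher under H2 than under H1, with a log2 fold change of 2.52 from H1 to H2 (SE 0.69, edgeR adjusted p = 0.00092). The 6 CH libraries of ZG at 0 reads leave its fold changes against ZG without a bound. Unlike those of the other genes, the calls of SERPINI2 were not checked without single libraries or with the steer as a block.

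The effect of RFI, which the selection did not use, was tested for each breed and diet alone, as low against high RFI, with edgeR's quasi-likelihood test. None of the 100 genes was called in any of the 6 comparisons with all libraries. For CH under H1, 94 of the 100 genes passed the filter and 0 were called (0.0155% of genes), 8 had an unadjusted p under 0.05 (11.7%), and DESeq2 called 4 (1.15%). For CH under ZG, 0 of 96 were called (0.0%), 4 had an unadjusted p under 0.05 (13.5%), and DESeq2 called 1 (1.29%). Without CH steer 788, which leaves 2 low RFI libraries under ZG, edgeR called a single gene of all, ENSBTAG00000039555, at -5.30 on the log2 scale (adjusted p = 0.00164). For CH under H2, 0 of 93 were called (0.0%), 17 had an unadjusted p under 0.05 (2.86%), and DESeq2 called 2 (0.022%). For HF under H1, 0 of 99 were called (0.0%), 15 had an unadjusted p under 0.05 (6.63%), and DESeq2 called 2 (0.13%). For HF under ZG, 0 of 95 were called (0.0%), 6 had an unadjusted p under 0.05 (2.09%), and DESeq2 called 0 (0.0109%). For HF under H2, 0 of 96 were called (0.0%), 11 had an unadjusted p under 0.05 (3.47%), and DESeq2 called 0 (0.0278%). With one RFI effect over all 90 libraries, 0 of the 100 genes were called (0.0%), 8 had an unadjusted p under 0.05 (6.39%), and DESeq2 called 0 (0.0101%).

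The 9 calls of DESeq2 were spread over 9 genes. They comprised all 8 named genes, as the origin of the names implies, and 1 without a name. The smallest adjusted p of edgeR among the 100 genes was 0.183, for GIMAP8 in CH under H1, where low exceeded high RFI by 0.60 on the log2 scale (SE 0.13). LOC768255 and GIMAP4 in CH under H2 followed at 0.224. Their gap shows how the RFI groups were composed. Under H2, 0 of 9 low RFI and 5 of 8 high RFI CH steers lay above it for both genes, whereas under H1 it was 7 of 9 low RFI and 3 of 11 high RFI CH steers, and under ZG 3 of 3 and 2 of 3. In HF it was 6 of 7 low and 8 of 9 high RFI steers under H1, 6 of 10 and 7 of 8 under ZG, and 4 of 5 and 7 of 8 under H2. In these counts the direction between the RFI groups of CH was opposite under H1 and H2, and this difference was not tested. In the fits for CH under H1, low exceeded high RFI by 0.63 for GIMAP4 (SE 0.79, edgeR adjusted p = 0.792). For LOC768255 it did so by 0.52 (SE 0.94, edgeR adjusted p = 0.861). The fits thus did not resolve a direction under H1. Steer 1100 was above the gap in both diets, as low RFI under H1 and high RFI under H2.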

How the data were processed

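Liver RNA from biopsies was prepared by the authors with a stranded kit and read from one end over 50 bp. The authors trimmed the reads, aligned them with STAR to the bovine build UMD3.1 and counted them per gene of an Ensembl annotation, and they deposited the raw counts without normalization for 24616 genes in 90 libraries. Libraries that were too shallow after trimming had been discarded by the authors. The strand setting of the counting is not given in the sources used here. The submitters' processing notes also name CASAVA, FastQC and DESeq2.

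All columns were mapped to a sample by their names, and samples were grouped by the breed, diet and RFI status in their labels, which gave 12 groups. Genes were ranked on log2(CPM + 0.5) with library totals as the scale. The members of the list, the measures and the gene lists were chosen with earlier results of these data known. Diet and RFI effects were fitted over all genes with edgeR 4.0.16 in R 4.3.3 (TMM, filterByExpr, robust quasi-likelihood), coded as low minus high RFI, with Benjamini-Hochberg adjustment over all genes tested and an adjusted p under 0.1. Standard errors (SE) were derived from each fold change and its F statistic. All p-values measure the spread between steers within groups. Libraries of one steer were paired by the steer numbers in the labels, and the consensus correlation between libraries of one steer was 0.126 in limma 3.58.1. Since each steer number occurs once within a breed and diet, the block applies only to fits over all libraries. Alternatives were DESeq2 1.42.0, RLE size factors, no filter, an adjusted p under 0.05, the steer as a block, and fits without single libraries. Added after the data were examined were fits without the 4 libraries nearer the other breed and without 1 library of each closely alike pair.

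The genes to be named were those with a symbol and the first 3 in each direction. Fold changes were given for those called, and the symbols came from a supplementary list of 352 identifiers, of which 328 had a name. Of 21 lists of marker and pathway genes, none could be matched for 80% of its symbols, so no list was measured. The fits were checked on simulated data with 200 genes set to change 1 unit on the log2 scale. Of these, 192 were recovered from H1 to ZG among 13945 genes, 183 between the RFI groups of CH under H1 among 12920 genes, and 20 between those of CH under ZG among 13025 genes. Genes called that had not been changed numbered 22, 14 and 3. The simulated levels had a single mode and independent libraries, so these rates need not hold for genes with a gap or for repeated steers. Python 3.11.15 with numpy 2.4.6, pandas 2.3.3 and matplotlib 3.10.9 was used for the remaining steps.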

Additional observations from a re-analysis of the deposited data

Results flagged for a closer look

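Groups of 4 to 10 libraries of one breed, diet and RFI status were tested for 14 genes on the log2 scale. Of 126 combinations of a group and a gene, 21 held a lowest or highest library farther from its nearest neighbour than Dixon's limit allows. For levels of a single mode, chance alone marks about 1 group in 20. In genes with a gap, a lone library on its other side is readily marked, so that rate does not apply to them. The libraries named are those of the steer given. Groups of 3 or 11 libraries were not tested.

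Among the genes with higher levels in HF, ENSBTAG00000047547 was at 0 CPM in steer 1656 (HF, H1, low RFI) and at 0.0402 CPM in steer 1797 (HF, H2, low RFI), below the others of their groups. ENSBTAG00000006383 was at 10.2 CPM in steer 1483 (CH, H2, low RFI), above the others, and at 0.218 CPM in steer 1657 (HF, H2, low RFI), below them. ENSBTAG00000047008 was low in steers 1811 (HF, H1, high RFI, 0.0896 CPM) and 1645 (HF, H2, high RFI, 0.117 CPM). LOC768255 and GIMAP4 were low in steer 5613 (HF, H1, high RFI), at 5.83 and 8.02 CPM, and in steer 5609 (HF, H2, high RFI), at 4.12 and 8.31 CPM. GIMAP8 was high in steers 2101 (HF, H1, high RFI, 95.0 CPM) and 1797 (HF, H2, low RFI, 165 CPM). SERPINI2 was high in steers 1831 (CH, H1, low RFI, 0.586 CPM), 2272 (HF, ZG, high RFI, 32.5 CPM) and 1834 (HF, ZG, low RFI, 3.47 CPM).

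Among the genes with higher levels in CH, ENSBTAG00000004459 was high in steers 5624 (HF, H1, high RFI, 20.4 CPM) and 5612 (HF, ZG, low RFI, 26.2 CPM). ENSBTAG00000006343 was high in steers 2266 (HF, H1, low RFI, 16.0 CPM) and 2094 (HF, ZG, low RFI, 31.7 CPM). The libraries of steers 5624, 5612 and 2094 are among the 4 nearer the other breed. GSTA4 was low in steers 950 (CH, H1, low RFI, 99.2 CPM) and 419 (CH, H2, high RFI, 187 CPM).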

How the results depend on the processing

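The list itself shared 80 genes with that from TMM scaling, 82 with a pseudocount of 2, 84 with no minimum CPM, 65 with group medians and 54 with a minimum of 5 CPM, which removes low genes by construction. It shared 85 to 92 when a CH library of ZG was left out in turn, 95 without steer 1797, 85 without the 4 libraries nearer the other breed and 96 without 1 of each alike pair. With single CH libraries of ZG left out, the CH minus HF difference under ZG ranged from -0.787 to 0.066 for GIMAP4 and from -1.03 to 0.20 for LOC768255, reversed without steer 307 in both, and the fold change of ENSBTAG00000047008 from H1 to ZG ranged from -0.21, without steer 788, to 1.25. The edgeR counts for RFI were 0 of the 100 genes in each comparison and 2 of all genes in CH under H1, with 0 elsewhere. With DESeq2, members called for RFI numbered 4, 1 and 2 in CH under H1, ZG and H2 and 2 in HF under H1, and all genes called 160, 160 and 4 in CH, 24, 2 and 5 in HF under H1, ZG and H2, and 2 over all libraries. Leaving out replicates gave 0 to 1 member and 0 to 1 gene for RFI in CH under ZG, the 1 being ENSBTAG00000039555 without steer 788. Between ZG and H2, 2440 genes were called and 17 of the 100. At an adjusted p under 0.05 it was 1486 genes, without the 4 libraries nearer the other breed 1337, and 1479 to 3268 with single libraries left out, with 1479 without CH steer 1831, 1616 without 357 and 1581 without 437. Causes were not tested. The steer as a replicate block left the calls among the 100 genes at 24 from H1 to ZG, 43 from H1 to H2 and 17 from ZG to H2 and at 0 for RFI over all libraries. Among the named fold changes, with SERPINI2 not compared, it lost both calls of ENSBTAG00000047008, as DESeq2 did, and that of LOC768255. The block moved no count by over 1.5 times. It used 1 correlation for all genes, 0.126, and joined the CH and HF libraries of steer number 1797. It therefore cannot show whether calls hold in genes whose levels are more alike within a steer. The calls of the 100 genes for diet ranged with single libraries left out from 19 to 28, from 43 to 48 and from 13 to 19. Of the 100 genes, 18 had libraries without a read. In all 18 the share of such libraries was higher in the breed with the lower level. A library without a read lowers the mean that the selection used, so this is not separate from the selection. In some of the 18, each breed had 1 such library, and the shares differed only through the number of libraries. The same share over all genes is not given here, and whether depth contributed was not tested. CH under ZG had 3 steers per RFI group.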
